A study of Mus musculus with 6 samples.

Results

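Coinhibitory receptors are surface proteins that dampen T cell activation, and 8 of them other than PD-1 are described here in splenic CD4 T cells with high, labelled absent and normal Blimp-1. The genes were Lag3, Tigit, Ctla4, Havcr2, Cd160, Btla, Cd5 and Entpd1, taken by name, and all 8 were matched by Ensembl identifier to GENCODE M21 among the 28914 genes measured. RNA was sequenced from total splenic CD4 T cells of NOD mice aged 12 weeks, in which autoimmune diabetes arises without induction. The cells were taken in a steady state and their T cell receptor was not stimulated further. The 6 libraries form 3 groups of 2: BTg, labelled as overexpressing Blimp-1; CKO, labelled Blimp-1 knockout; and WT, the controls. All 3 groups are NOD mice of the same age, while the sources used here name neither the promoter of the transgene nor the deleted part of the gene nor the cells that lost it. Whether both libraries of a group stem from different mice is not in the labels, and p-values therefore cover only the spread between these libraries, which may be technical.

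The receptors differ in how they act. CTLA-4 competes with the costimulatory receptor CD28 for its ligands CD80 and CD86, TIGIT binds CD155 on other cells, and LAG-3 is a relative of CD4 that binds MHC class II. TIM-3, encoded by Havcr2, binds galectin-9 among other ligands, BTLA and CD160 share the ligand HVEM, CD5 tunes signals of the T cell receptor, and CD39, encoded by Entpd1, is an enzyme that degrades extracellular ATP. Blimp-1, encoded by Prdm1, is a zinc-finger transcriptional repressor, and in mouse CD8 T cells of chronic viral infection it is known to accompany high levels of several of these receptors. CTLA-4, TIGIT and CD39 are also abundant on regulatory T cells, the suppressive CD4 cells marked by Foxp3.

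The libraries held 14958458 to 17799091 reads counted on genes. Prdm1 had 19.6 and 30.1 FPKM (read fragments scaled by gene length and library size) in BTg, 0.849 and 0.669 in the libraries labelled CKO, and 0.458 and 0.628 in WT. It was thus not lower in the libraries labelled CKO, and a value summed over the whole gene cannot check a partial deletion. Every direction for CKO below therefore rests on its label. CKO replicate 1 lay far from the other 5 libraries on a principal component that held 56.5% of the variance. Of its reads 1.04% were on the 8 neutrophil markers and 0.273% on the 9 T cell markers of lists used here, against 0.00269 to 0.0221% and 0.38 to 0.563% in the other libraries. Summed over each list, B cell, plasma cell, basophil and monocyte markers were highest in it too, though not every listed gene was. The other libraries were not free of them, with 0.273 to 0.371% of reads on B cell and 0.191 to 0.536% on plasma cell markers. Erythroid markers took from 0.0136% of reads in WT replicate 1 to 0.132% in WT replicate 2. Cd4 had 9064 to 15770 reads and Cd8a 3 to 13.

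The deposited FPKM divide by a gene length that includes introns, which holds down genes with long introns, so levels are compared between genes by RPKM on merged exon length, called the exon level here. In WT, Cd5 was the most abundant, with exon levels of 68.9 and 79.2, followed by Btla with 42.3 and 29.5 and Ctla4 with 22.8 and 17.7. Tigit followed at 14.4 and 14, ahead of Lag3 at 4.29 and 4.13, Cd160 at 4.51 and 2.08, Entpd1 at 1.85 and 2.41 and Havcr2 at 0.31 and 0.289. Of the neighbours in this WT order, Lag3 and Cd160 overlapped, as did Cd160 and Entpd1, and the others did not. In the libraries labelled CKO the order was another one: Tigit stood above Btla, and its exon levels of 49.2 and 54.1 reached the lower of the Cd5 values, 48.9. In BTg, Cd5 at 88.3 and 91.5 and Btla at 34.4 and 31.6 led again, with Tigit at 8.35 and 7.2 below Ctla4 at 15.6 and 14.3.

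**Figure D1:**
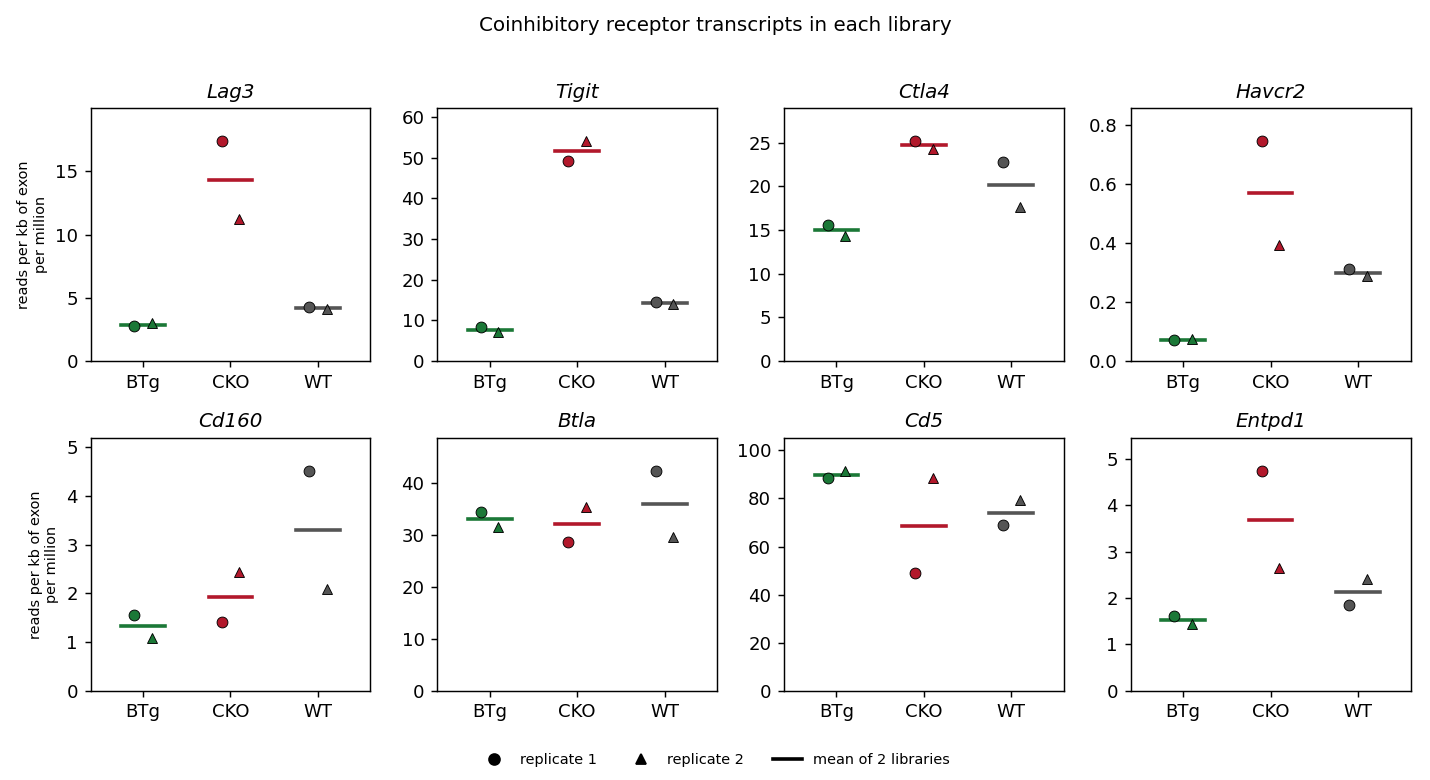
Exon level (RPKM on merged exon length, linear axis from 0) of the 8 receptor genes in each of the 6 libraries, with BTg, CKO (as labelled) and WT from left to right; points are libraries (circles replicate 1, triangles replicate 2) and lines the means of 2. In both CKO libraries Tigit is at least 3.40 times and Lag3 at least 2.61 times as high as in any library of the other groups. Btla and Cd5 overlap between CKO and WT.

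Tigit (ENSMUSG00000071552, chr16:43648867-43664146 on GRCm38, minus strand) had the largest ratios of exon levels between CKO and both other groups among the receptors with enough reads, while on the log2(FPKM + 1) scale the differences of Lag3 were larger. It had 0.502 and 0.433 FPKM in BTg (117 and 99 reads), 2.96 and 3.25 FPKM in the libraries labelled CKO (804 and 881 reads) and 0.869 and 0.845 FPKM in WT (236 and 197 reads). No 2 groups overlapped, and both CKO libraries stood highest. The mean exon level was 3.62 times that of WT in CKO and 1.83-fold lower than WT in BTg. On the log2(FPKM + 1) scale the difference was 1.14 (SE 0.20) for CKO minus WT, with limma adjusted p = 0.636 over the 10798 genes tested. For BTg minus CKO it was -1.48 (SE 0.20), with limma adjusted p = 0.158, and for BTg minus WT -0.34 (SE 0.20) with limma adjusted p = 1. Tigit passed the filter of 1 FPKM in 2 libraries only through the CKO libraries, where it is high. Its deposited length is 16.6 times its exon length, so the added 1 weighs heavily, and differences by limma voom on the recovered reads were larger: 1.85 (SE 0.29) for CKO minus WT, -2.73 (SE 0.33) for BTg minus CKO and -0.87 (SE 0.36) for BTg minus WT. Their limma voom adjusted p were 0.389, 0.0594 and 1. Without CKO replicate 1, the library that lay apart, limma voom gave 1.92 for CKO minus WT and -2.80 for BTg minus CKO. Neither difference was smaller than with all 6 libraries. CKO replicate 2 held other cell types' markers too, with 0.536% of reads on plasma cell markers against 0.292 and 0.349% in WT. Leaving out CKO replicate 1 therefore does not remove them, and their part in the Tigit values was not tested. The BTg minus CKO difference passed with exon levels in place of FPKM, at -2.59 and limma adjusted p = 0.0463.

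Lag3 (ENSMUSG00000030124, chr6:124904361-124911705, minus strand) had the same order of groups. It had 1.31 and 1.44 FPKM in BTg (88 and 95 reads), 8.33 and 5.37 FPKM in the libraries labelled CKO (652 and 419 reads) and 2.06 and 1.98 FPKM in WT (161 and 133 reads). The groups did not overlap, and CKO replicate 1 was the highest. The mean exon level was 3.39 times that of WT in CKO, with 4.05 times between the libraries numbered 1 and 2.71 times between those numbered 2. The log2(FPKM + 1) difference was 1.35 (SE 0.24) for CKO minus WT, with limma adjusted p = 0.636. It was -1.70 (SE 0.24) for BTg minus CKO, with limma adjusted p = 0.175. BTg minus WT was -0.35 (95% interval -0.93 to 0.24) with limma adjusted p = 1. Without CKO replicate 1 the limma differences were 1.08 for CKO minus WT and -1.42 for BTg minus CKO. Without CKO replicate 2, so that its group holds only the library that lay apart, Lag3 passed in BTg minus CKO at -1.97 (limma adjusted p = 0.0291).

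Ctla4 (ENSMUSG00000026011, chr1:60887000-60915832, plus strand) differed far less than Tigit and Lag3 did in CKO against WT. It had 5.34 and 4.91 FPKM in BTg (555 and 500 reads), 8.62 and 8.31 FPKM in the libraries labelled CKO (1044 and 1003 reads) and 7.8 and 6.05 FPKM in WT (944 and 628 reads). The order BTg, WT, CKO was again free of overlap, but WT replicate 1 lay close to CKO. The log2(FPKM + 1) difference was 0.27 (95% interval -0.27 to 0.80) for CKO minus WT and -0.36 (95% interval -0.90 to 0.17) for BTg minus WT, both with limma adjusted p = 1. Either one depended on the WT libraries: without WT replicate 1 they were 0.43 and -0.20, and without WT replicate 2 they were 0.10 and -0.52. For BTg minus CKO it was -0.63 (SE 0.22), with limma adjusted p = 0.51. Pdcd1, encoding PD-1, stands beside these 3 receptors with exon levels of 10.2 and 8.73 in BTg, 61.8 and 59.3 in the libraries labelled CKO and 23 and 15.7 in WT.

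At adjusted p under 0.05, limma called 0 of the 5 receptors past the FPKM filter in each comparison, beside 0.0185% of genes in BTg minus WT, 0.0% in CKO minus WT and 0.0185% in BTg minus CKO. limma voom on reads called 0 of 8 in each, beside 0.0251%, 0.0% and 0.044% of 15927 genes.

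At unadjusted p under 0.05, limma had 0 of 5 receptors higher and 0 lower in BTg than WT, beside 0.769% and 0.852% of genes. Tigit had to differ to pass the FPKM filter and is left out of the limma counts with CKO. Of the other 4 receptors, Lag3 was higher and 0 lower in CKO than WT, beside 3.11% and 1.09%. In BTg minus CKO, Lag3 and Ctla4 were lower and 0 higher, beside 6.01% and 2.78%. By limma voom, Tigit and Havcr2 were lower and 0 of 8 higher in BTg than WT (0.998% and 0.421% of genes). Tigit and Lag3 were higher and 0 lower in CKO than WT (5.01% and 0.923%). Those 2, Ctla4, Havcr2 and Entpd1 were lower and 0 higher in BTg than CKO (9.93% and 2.83%).

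Groups of 2 libraries often fail to overlap. Both BTg libraries lay below both WT libraries for 6 of the 8 receptors and above them for Cd5, beside 13.2% and 13.7% of genes. Both CKO libraries lay above both WT libraries for 5 receptors and below them for 0, beside 15.6% and 9.39%. Both BTg libraries lay below both CKO libraries for 5 receptors and above them for 0, beside 27.6% and 16.5%. BTg below WT below CKO with no overlap was the order of Tigit, Lag3, Ctla4, Havcr2 and Entpd1, 5 of the 8, and of 4.38% of the genes. Havcr2 stands in these counts with as few as 3 reads a library and is too low to judge. The median log2 difference over the 8 by limma voom was -0.51 for BTg minus WT, 0.53 for CKO minus WT and -0.97 for BTg minus CKO, beside medians over all genes of 0.01, -0.01 and 0.03. The comparisons share libraries, so they are not separate evidence.

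**Figure D2:**
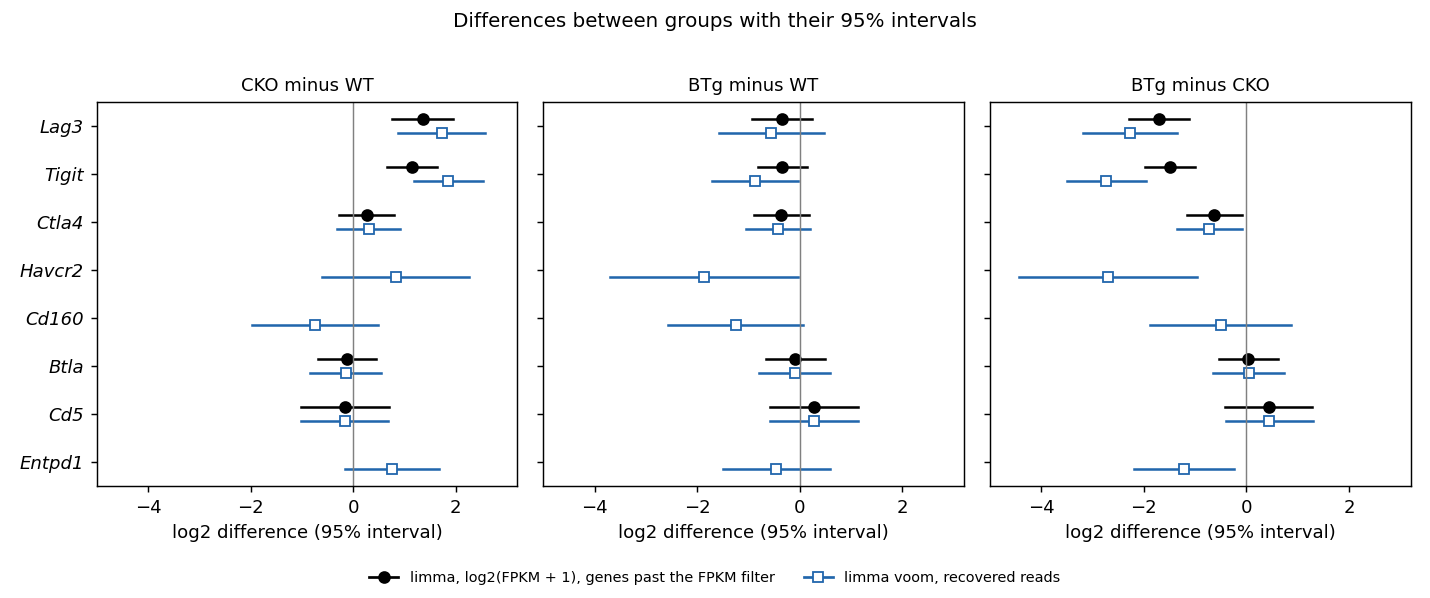
Log2 differences with 95% intervals for CKO minus WT, BTg minus WT and BTg minus CKO (CKO as labelled). Filled circles are limma on log2(FPKM + 1) for the 5 genes past the FPKM filter and open squares limma voom on recovered reads for all 8. Intervals of Tigit and Lag3 exclude 0 for CKO minus WT and for BTg minus CKO, and those of Btla and Cd5 include it in all 3 comparisons.

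Foxp3 varied in the same order as these receptors, with exon levels of 9.65 and 11.2 in BTg, 17.8 and 26.2 in the libraries labelled CKO and 15 and 17.7 in WT. The 9 regulatory T cell markers summed to exon levels of 94.8 and 82.3 in BTg, 113 and 138 in CKO and 105 and 96.1 in WT, and all 9 were detected in every library. By limma voom 6 of these 9 were higher in CKO than WT, 4 of them at unadjusted p under 0.05 (5.01% of all genes). In BTg 7 were lower than in WT, 1 of them at that threshold (0.998% of all genes). In bulk RNA, fewer cells of a type and less RNA per cell cannot be told apart. Set over the Foxp3 level of the same library, Ctla4 was 1.62 and 1.28 in BTg, 1.42 and 0.926 in CKO and 0.998 to 1.52 in WT, so the 3 groups overlapped. Tigit over Foxp3 was 0.865 and 0.641 in BTg, 2.76 and 2.06 in CKO and 0.964 and 0.794 in WT, so CKO stayed above both other groups while BTg and WT overlapped. Lag3 over Foxp3 was 0.283 and 0.268 in BTg, 0.977 and 0.427 in CKO and 0.287 and 0.234 in WT, with CKO again highest. Entpd1 over Foxp3 was 0.168 and 0.128 in BTg, 0.267 and 0.101 in CKO and 0.124 and 0.136 in WT, so the 3 groups overlapped. These ratios hold for Foxp3 only, since other regulatory T cell markers varied otherwise. Ikzf2 had exon levels of 5.26 and 6.52 in BTg, 14.3 and 24.2 in CKO and 9.46 and 11.5 in WT. Il2ra had 8.76 and 8.36 in BTg, 6.09 and 9.81 in CKO and 9.3 and 9.95 in WT, so CKO overlapped both other groups. Over another marker the order of Tigit or Lag3 may differ. The part of regulatory T cells in these differences was not tested.

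**Figure D3:**
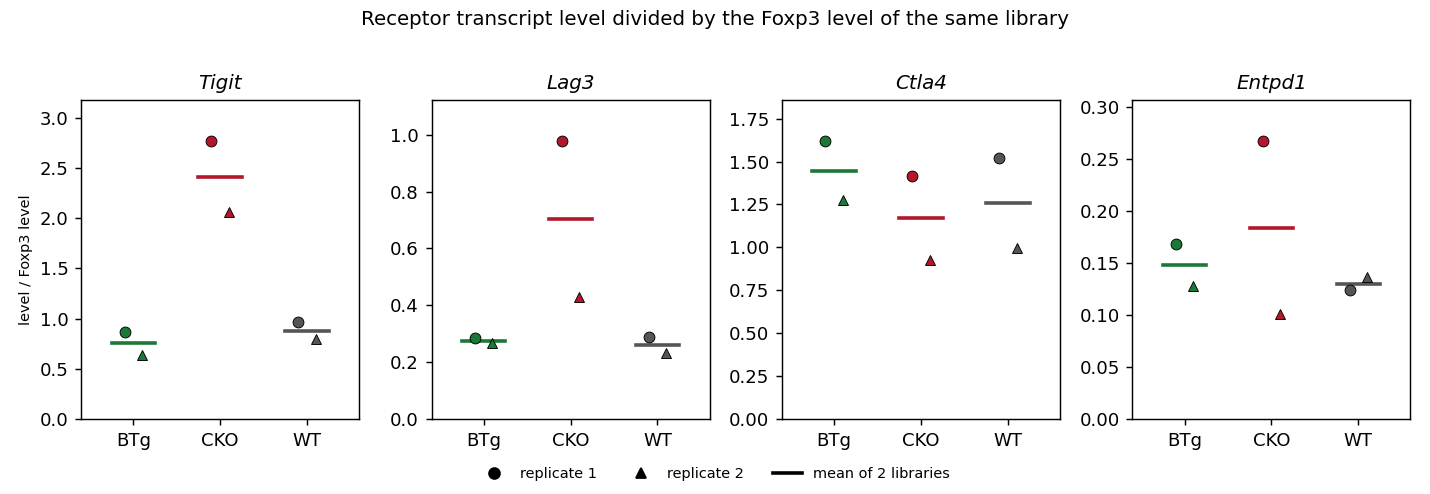
Exon level of Tigit, Lag3, Ctla4 and Entpd1 divided by the Foxp3 exon level of the same library (no unit, linear axis from 0), with BTg, CKO (as labelled) and WT from left to right; points are libraries and lines the means of 2. For Tigit and Lag3 both CKO libraries lie above the others, whereas for Ctla4 the 3 groups overlap between 0.926 and 1.62. For Entpd1 the 3 groups overlap too, between 0.101 and 0.267. The ratios hold for Foxp3 only, since other regulatory T cell markers varied otherwise.

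The window around the transcription start was in the RefSeq promoter table (GRCm38.p6) for 7 of the 8 genes, as 9 windows from 250 bases before to 50 bases after a start. The windows of Tigit and Ctla4 are shown as a receptor that separated the groups widely and one that did so weakly, and the second window of Cd160 as the only one of the 9 with a longer match. Capitals mark GAAAG, the core of known Blimp-1 sites, read on either strand (CTTTC on the other), with matches that may overlap. All are printed 5′ to 3′ along the strand of the gene.
Tigit, chr16:43664135-43664434, minus strand: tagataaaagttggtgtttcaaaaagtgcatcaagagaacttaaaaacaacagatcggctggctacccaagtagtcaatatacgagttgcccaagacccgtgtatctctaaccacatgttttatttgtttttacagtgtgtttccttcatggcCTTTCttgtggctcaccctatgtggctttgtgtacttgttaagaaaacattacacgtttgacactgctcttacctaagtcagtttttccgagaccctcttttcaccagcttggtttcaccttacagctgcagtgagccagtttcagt
Ctla4, chr1:60908775-60909074, plus strand: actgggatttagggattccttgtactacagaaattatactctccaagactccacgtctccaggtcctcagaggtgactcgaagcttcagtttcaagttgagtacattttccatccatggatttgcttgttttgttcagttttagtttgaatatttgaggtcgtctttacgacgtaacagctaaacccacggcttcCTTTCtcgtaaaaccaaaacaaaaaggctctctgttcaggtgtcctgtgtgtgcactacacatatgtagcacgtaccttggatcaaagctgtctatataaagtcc
Cd160, chr3:96814472-96814771, minus strand: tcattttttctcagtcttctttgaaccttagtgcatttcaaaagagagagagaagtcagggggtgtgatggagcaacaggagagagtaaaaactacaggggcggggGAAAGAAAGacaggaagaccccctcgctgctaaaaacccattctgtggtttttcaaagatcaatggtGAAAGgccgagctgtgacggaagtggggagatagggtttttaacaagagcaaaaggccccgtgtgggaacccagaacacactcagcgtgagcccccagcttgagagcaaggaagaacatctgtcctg
GAAAG was found in 6 of the 9 windows, against 57.3% of the 32851 windows of all genes, and both Tigit and Ctla4 had 1 match. GTGAAAG, which contains the shorter motif, was found in 1 of the 9, that of Cd160 shown here, against 4.24% of all windows. A match describes letters in the window and no more, and binding was not measured here.

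Entpd1 (ENSMUSG00000048120, chr19:40612366-40741602, plus strand) had enough reads to compare but did not reach 1 FPKM in any library, on a scale whose gene length is 9.15 times its exon length. It had 138 and 120 reads in BTg (0.177 and 0.157 FPKM), 471 and 261 in the libraries labelled CKO (0.518 and 0.288 FPKM) and 184 and 205 in WT (0.203 and 0.263 FPKM). The groups did not overlap, but CKO replicate 2 lay close to WT. By limma voom the log2 difference was 0.75 (95% interval -0.16 to 1.66) for CKO minus WT, with adjusted p = 0.875. For BTg minus CKO it was -1.21 (SE 0.42), with limma voom adjusted p = 0.321, and for BTg minus WT -0.46 (95% interval -1.50 to 0.58) with adjusted p = 1. Without CKO replicate 1 the CKO minus WT difference by limma voom was 0.33, and without CKO replicate 2 it was 1.17. Monocyte and dendritic cell markers, which include cells known to carry CD39, summed to 0.108% of reads in CKO replicate 1 and 0.0177% in CKO replicate 2, against 0.0028 and 0.0036% in BTg and 0.00308 and 0.0121% in WT. Not every gene of this list was highest in CKO replicate 1, and the part of such cells in the Entpd1 values was not tested.

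Havcr2 (ENSMUSG00000020399, chr11:46454935-46481255, plus strand) was too low to judge, with a median of 13.5 reads per library against a limit of 30. It had 3 and 3 reads in BTg, 36 and 19 in the libraries labelled CKO and 15 and 12 in WT. The exact 95% Poisson interval, which covers counting error only, was 0.619 to 8.77 for 3 reads, 11.4 to 29.7 for 19 reads and 6.2 to 21 for 12 reads. CKO replicate 2 and WT replicate 2 therefore could not be told apart by counting alone. The difference by limma voom was -2.70 (SE 0.75) for BTg minus CKO, with limma voom adjusted p = 0.241, and rests on these few reads. It was -2.25 without CKO replicate 1, where CKO minus WT was 0.38 in place of 0.83. TIM-3 is known on monocytes and dendritic cells, whose listed markers summed highest in CKO replicate 1 as given for Entpd1. Of these, Lyz2 alone had 16230 reads there. Csf1r, a defining gene of monocytes, had 32 and 53 reads in BTg, 879 and 205 in CKO and 45 and 133 in WT. Itgax, Flt3, Cd209a and Siglech on the same list were not highest in CKO replicate 1. Flt3 had 33 and 65 reads in BTg, 89 and 140 in CKO and 40 and 112 in WT. The part of such cells was not tested.

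Cd160 (ENSMUSG00000038304, chr3:96798763-96829351, minus strand) had 63 and 43 reads in BTg, 66 and 114 in the libraries labelled CKO and 212 and 84 in WT. WT replicate 1 alone was high, and the other 5 libraries ran from 43 to 114 reads. The limma voom log2 difference was -1.25 (95% interval -2.56 to 0.07) for BTg minus WT, -0.75 (95% interval -1.98 to 0.48) for CKO minus WT and -0.50 (95% interval -1.87 to 0.88) for BTg minus CKO, with adjusted p of 1, 0.96 and 0.743. Without WT replicate 1 the first of these was -0.67. CD160 is known on natural killer, CD8 and gamma-delta T cells as well. Cd8b1, a chain of the CD8 coreceptor, had 73 and 62 reads in BTg, 44 and 105 in CKO and 213 and 95 in WT, with WT replicate 1 the highest here too. Cd8a, the other chain, had 3 to 13 reads in all libraries, and Ncr1, a defining gene of natural killer cells, 14 to 32. The 8 natural killer markers took 0.00263 and 0.00322% of reads in BTg, 0.00258 and 0.00352% in CKO and 0.00294 and 0.00273% in WT. Trdc, the constant region of the T cell receptor delta chain, had 116 and 176 reads in BTg, 118 and 390 in CKO and 189 and 316 in WT. Of the other gamma-delta T cell markers, Tcrg-C4 had 78 and 63 reads in BTg, 107 and 196 in CKO and 221 and 141 in WT, and Tcrg-C2 had 46 and 60 in BTg, 108 and 177 in CKO and 183 and 149 in WT, both highest in WT replicate 1 like Cd160. Tcrg-C1 and Sox13 were highest in CKO. By limma voom 5 of 5 detected gamma-delta markers were lower in BTg than WT, 2 of them at unadjusted p under 0.05 (0.998% of all genes). The part of these cells in the Cd160 values was not tested. Cd160 shares 68 exon bases with Pdzk1 on the opposite strand, which had 1 to 3 reads.

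Btla (ENSMUSG00000052013, chr16:45224315-45257670, plus strand) did not separate the groups. It had 4.34 and 3.98 FPKM in BTg (1783 and 1604 reads), 3.62 and 4.46 FPKM in the libraries labelled CKO (1734 and 2127 reads) and 5.34 and 3.73 FPKM in WT (2556 and 1531 reads). All 3 groups overlapped, and the widest gap within a group was in WT. Log2(FPKM + 1) differences were -0.09 (95% interval -0.65 to 0.48) for BTg minus WT, -0.12 (95% interval -0.69 to 0.44) for CKO minus WT and 0.04 (95% interval -0.53 to 0.61) for BTg minus CKO. Limma adjusted p were 1, 1 and 0.961. These intervals leave room for differences of up to about that size and do not show equal levels.

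Cd5 (ENSMUSG00000024669, chr19:10717116-10739002, minus strand) had 36.6 and 37.9 FPKM in BTg, 20.2 and 36.6 in the libraries labelled CKO and 28.5 and 32.8 in WT. CKO replicate 1 was the lowest library, and both BTg libraries lay above both of WT. The log2(FPKM + 1) difference was 0.28 (95% interval -0.58 to 1.13) for BTg minus WT, with limma adjusted p = 1. For CKO minus WT it was -0.16 (95% interval -1.01 to 0.69), and its sign turned to 0.25 without CKO replicate 1. For BTg minus CKO it was 0.44 (95% interval -0.42 to 1.29), with limma adjusted p = 0.727. Of the T cell markers, 9 of 9 were higher in BTg than WT (median log2 difference 0.21) and 9 of 9 lower in CKO than WT (median -0.42). Of all 10798 genes, 5885 were higher in BTg than WT and 4902 higher in CKO than WT. At unadjusted limma p under 0.05 there were 0 markers, beside 0.769% of genes higher in BTg and 1.09% lower in CKO. CKO replicate 1 had the smallest share of reads on these 9 markers. Cd3e, a chain of the CD3 complex, had exon levels of 91.6 and 115 in BTg, 42.2 and 88.5 in CKO and 68.7 and 89.1 in WT. Set over Cd3e, Cd5 was 0.964 and 0.799 in BTg, 1.16 and 0.999 in CKO and 1 and 0.889 in WT. This ratio holds for Cd3e only, since other T cell markers varied otherwise. Cd3g had exon levels of 268 and 175 in BTg, 119 and 141 in CKO and 269 and 135 in WT, so BTg and WT overlapped. The part of T cell content in the Cd5 values was not tested.

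Among 8213 named protein-coding genes, those whose profile over the 6 libraries lay closest to that of Tigit were Zbtb32, Ccr4 and Esm1, with root mean square distances of 0.06, 0.07 and 0.10 in log2(FPKM + 1) after centring. Zbtb32, a zinc-finger transcriptional regulator, had 1.13 and 0.984 FPKM in BTg, 4.15 and 4.7 in CKO and 1.76 and 1.53 in WT. Ccr4, a chemokine receptor, had 2.07 and 2.16 FPKM in BTg, 7.47 and 8.62 in CKO and 2.84 and 3.3 in WT. Esm1 had 0.171 and 0.095 FPKM in BTg, 1.95 and 1.74 in CKO and 0.48 and 0.427 in WT. Like Tigit, Esm1 passed the filter only through the CKO libraries, and at such low FPKM the added 1 weighs heavily in the distance. The closest to Lag3 were Fam43a, Itpripl2 and Rgs16, with distances of 0.12, 0.12 and 0.13. Rgs16, a regulator of G protein signalling, had 1.29 and 1.12 FPKM in BTg, 6.42 and 5.45 in CKO and 2.16 and 1.74 in WT. The rule covered receptors past the FPKM filter that spanned at least 1 on this scale, which were Tigit and Lag3. With only 6 libraries many profiles are close to each other.

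Of 12 listed ligands and binding partners of the receptors, 5 passed the FPKM filter, and 1 of these was higher in CKO than WT at unadjusted limma p under 0.05 (3.11% of all genes). By limma voom 9 could be tested, and 3 were higher and 0 lower in CKO than WT at that threshold (5.01% and 0.923% of all genes). In BTg minus CKO 4 were lower and 1 higher (9.93% and 2.83%), and in BTg minus WT 1 was lower and 0 higher (0.998% and 0.421%). The 1 ligand past limma's unadjusted threshold in CKO minus WT was Lgals3, encoding galectin-3, with 1.45 and 0.851 FPKM in BTg, 13.1 and 3.53 in CKO and 1.79 and 1.96 in WT. Galectin-3 is abundant in myeloid cells, whose listed markers summed highest in CKO replicate 1, and their part was not tested. Pvr, which encodes the TIGIT ligand CD155, had 6.1 and 7.36 FPKM in BTg, 2.56 and 5.26 in CKO and 4.96 and 4.69 in WT. Lgals9, encoding galectin-9, had 6.63 and 6.17 FPKM in BTg, 11.9 and 6.64 in CKO and 5.4 and 6.01 in WT.

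Of 15 other coinhibitory genes, 7 passed the FPKM filter, and 2 of these were higher in CKO than WT and 1 lower in BTg than WT at unadjusted limma p under 0.05 (3.11% and 0.852% of all genes). Besides Pdcd1 the second was Cd200, the ligand of an inhibitory receptor, with 1.01 and 1.04 FPKM in BTg, 2.75 and 3.14 in CKO and 1.63 and 1.55 in WT. Vsir, encoding VISTA, had instead 23.5 and 22.1 FPKM in BTg, 15.5 and 16.4 in CKO and 18.7 and 16.2 in WT, and limma adjusted p = 1 for BTg minus WT. Among the 12 costimulatory genes 10 passed the filter, and Icos and Tnfrsf4 were higher in CKO than WT at unadjusted limma p under 0.05 (3.11% of all genes). Icos, a receptor of the CD28 family, had 1.77 and 1.56 FPKM in BTg, 7.69 and 6.29 in CKO and 3.23 and 2.75 in WT. Tnfrsf4, encoding OX40, had 8.34 and 9.89 FPKM in BTg, 22.4 and 19.3 in CKO and 13.1 and 12.2 in WT. Cd40lg, encoding the ligand of CD40, had 6.85 and 5.33 FPKM in BTg, 2.29 and 4.13 in CKO and 4.93 and 3.94 in WT. The median over the costimulatory list was -0.20 for CKO minus WT and also -0.20 for BTg minus WT, beside -0.03 and 0.02 over all genes.

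Of 16 signalling genes, which include the phosphatases encoded by Ptpn6 and Ptpn11 and the ubiquitin ligase encoded by Cblb, 14 passed the filter, and 0 had unadjusted limma p under 0.05 in any comparison, beside shares of all genes from 0.769% to 6.01% per direction. By limma voom 1 of 16 was higher in BTg than CKO at that threshold (2.83% of all genes) and 0 in the other comparisons. In direction alone, 12 of the 14 were higher in BTg than WT by limma, beside 5885 of 10798 genes. In CKO 6 of the 14 were higher than in WT, beside 4902 of all genes. Ptpn11 was among the 2 that were lower in BTg than WT. Ptpn11, encoding SHP-2, had 2.51 and 2.67 FPKM in BTg, 3.5 and 4.04 in CKO and 2.41 and 3.08 in WT. Of 10 genes for trafficking of CTLA-4 or shedding of LAG-3, 8 passed the filter, and 0 had unadjusted limma p under 0.05 in any comparison, beside the same shares. By limma voom 1 of 10 was higher in BTg than CKO at that threshold (2.83% of all genes), and 0 in the other comparisons. Trat1, encoding an adaptor that helps to bring CTLA-4 to the surface, had 6.64 and 4.32 FPKM in BTg, 2.4 and 3 in CKO and 6.51 and 3.33 in WT, so BTg and WT overlapped.

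CD39 makes AMP, which CD73, encoded by Nt5e, turns into adenosine, and T cells sense adenosine through the receptor encoded by Adora2a. Nt5e had 1.43 and 1.55 FPKM in BTg, 4.28 and 5.03 in the libraries labelled CKO and 2.46 and 2.25 in WT. Its groups followed the order of Entpd1 without overlap, with a log2(FPKM + 1) difference of 0.75 (SE 0.19) for CKO minus WT and limma adjusted p = 0.934. Adora2a ran the other way in BTg, with 12.2 and 12.6 FPKM there, 5.02 and 7.89 in CKO and 6.74 and 7.09 in WT. Its difference was 0.76 (SE 0.26) for BTg minus WT, with limma adjusted p = 1. Of the 12 genes on the list 6 passed the filter.

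Of 18 transcription factors known to act on coinhibitory genes, 13 passed the filter, with a median log2 difference of 0.45 for CKO minus WT and -0.88 for BTg minus CKO, beside -0.03 and 0.06 over all genes. In CKO minus WT 5 of the 13 were higher at unadjusted limma p under 0.05 and 0 lower, beside 3.11% and 1.09% of all genes. In BTg minus CKO 8 were lower and 1, Prdm1, was higher, beside 6.01% and 2.78%. Prdm1 reached 1 FPKM only in the BTg libraries and Ikzf2, among the 8, only in CKO, so both had to differ to pass. By limma voom, whose filter counts reads, 12 of 18 were lower and 1 higher, beside 9.93% and 2.83%. Prdm1 passed over all genes with limma adjusted p = 0.0363. This call was lost with a replicate block, with quantile normalization, in a fit of only these groups and without any 1 library other than CKO replicate 2, since 0 genes then passed in this comparison. Irf4, which responds to T cell receptor signals, had 0.801 and 1.23 FPKM in BTg, 4.33 and 3.32 in CKO and 1.13 and 1.82 in WT; it is also a plasma cell gene, and plasma cell markers took 2.48% of the reads of CKO replicate 1 and 0.536% of those of CKO replicate 2, against 0.27 and 0.191% in BTg and 0.292 and 0.349% in WT. Egr2, induced by T cell receptor signals and linked to anergy, had 1.91 and 2.34 FPKM in BTg, 5.14 and 5.67 in CKO and 2.86 and 3.34 in WT. Foxp3 and Ikzf2 on this list are also regulatory T cell markers. Eomes, a T-box factor that is also a natural killer marker, had 0.147 and 0.178 FPKM in BTg, 1.29 and 2.59 in CKO and 1.09 and 1.11 in WT. The part of plasma cells in the Irf4 values was not tested.

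**Figure D4:**
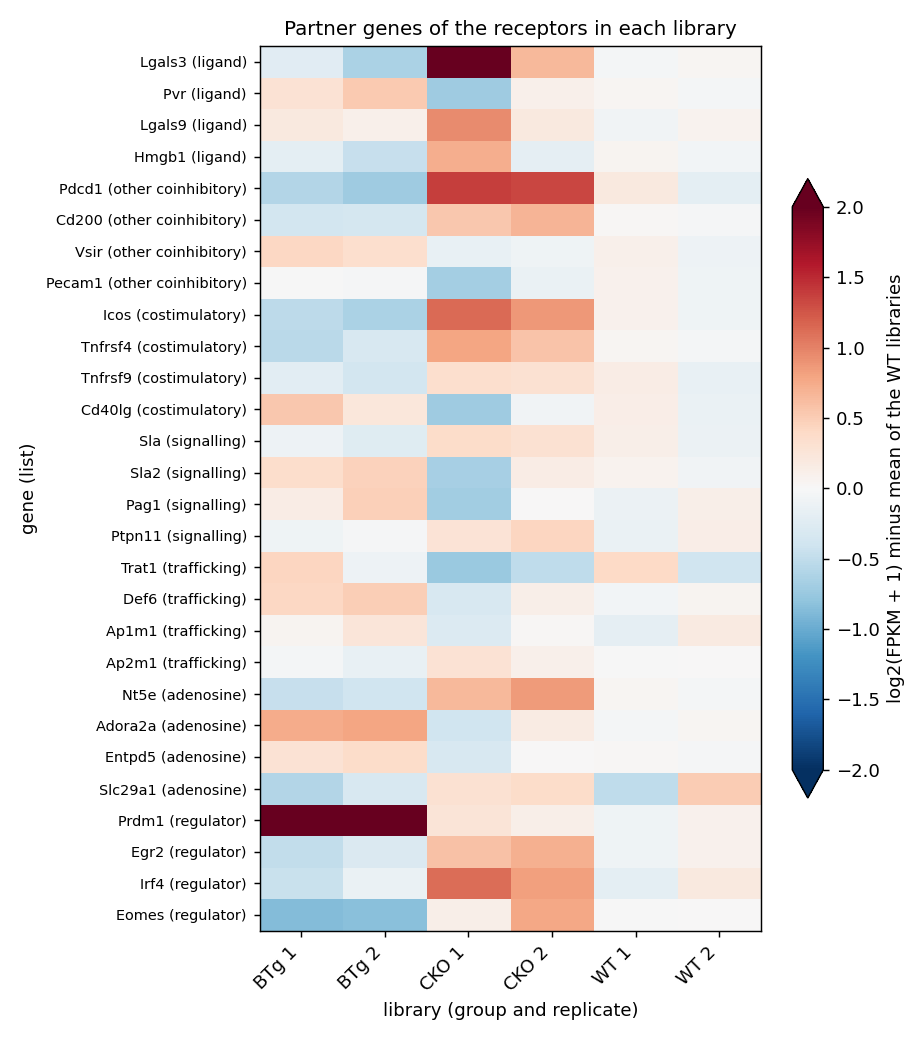
Heat map of log2(FPKM + 1) minus the mean of the WT libraries, with genes in rows (list in brackets) and the 6 libraries in columns, BTg, CKO (as labelled) and WT from left to right; colours are capped at 2 in either direction. Pdcd1, Icos, Nt5e and Egr2 are red in both CKO libraries and blue in both BTg libraries, while Adora2a is red in both BTg libraries. Irf4 is red in both CKO libraries, but its BTg and WT values overlap.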

How the data were processed

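TRIzol extraction and NEBNext Ultra libraries are given per the labels' protocols. Trimmomatic 0.38, HISAT2 2.1.0 and featureCounts 1.6.0 with the GRCm38 build are named per the submitters' processing notes; the sources used here name no settings, annotation release or strand. The authors deposited FPKM values for 28914 genes in 6 libraries. When the length of a gene was set to the median span, introns included, of its GENCODE M21 transcripts, 100.0% of values above 0 were whole reads within 0.01 (21.2 to 22.9% with merged exon length), which gave the reads used here. Dividing by spans does not alter ratios of 1 gene between libraries, but acts through the filter and pseudocount. Depth was 14958458 to 17799091 reads.

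Groups and replicate numbers came from the sample titles; both BTg titles end in 1 outside the brackets, so number 2 rests on the bracketed column name. Log2(FPKM + 1) of genes that reached 1 FPKM in 2 or more libraries was fitted with limma 3.58.1 (R 4.3.3; eBayes with a trend) over all 6 libraries, and calls were made at a Benjamini-Hochberg adjusted p under 0.05. limma voom on reads (at least 10 in 2 libraries) was an alternative and gives the values of genes under the FPKM filter. Other alternatives were the pseudocount, the filter, the scaling between libraries, the variance model, exon length, fits of only the groups compared, a replicate block and leaving out each library. An exact permutation test of 2 against 2 cannot go below 0.333, so none is given. The receptors and gene lists were chosen with earlier results of these data known. Named genes were the 8 receptors, Prdm1, Pdcd1, up to 4 genes per list with the smallest p in any comparison, and the 3 closest profiles. Foxp3, Cd3e, Cd3g, Cd4, Csf1r, Cd8b1, Cd8a, Ncr1 and Trdc were chosen from the marker lists after their values were seen. So were the other gamma-delta, monocyte and dendritic cell genes. Ptpn6 and Cblb as examples and the promoter motifs were chosen likewise. A gene was called too low to judge under a median of 30 reads. Promoter windows are from RefSeq. Figures were drawn with matplotlib 3.10.9.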

Additional observations from a re-analysis of the deposited data

How the results depend on the processing

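Across 431 refits of the 24 receptor differences, 412 kept their direction and stayed on the same side of the threshold, 9 passed it and 10 changed sign. The sign changes were confined to Btla and Cd5: leaving out 1 library gave limma differences of -0.30 to 0.13 for Btla in BTg minus WT, -0.34 to 0.087 in CKO minus WT and -0.081 to 0.16 in BTg minus CKO (-0.011 without BTg replicate 1), and -0.57 to 0.25 for Cd5 in CKO minus WT. The same by limma voom was -0.36 to 0.16, -0.41 to 0.11 and -0.10 to 0.20 (-0.012 without BTg replicate 1) for Btla, and -0.60 to 0.26 for Cd5. Of the 9 that passed, 7 came without CKO replicate 2; the lone library then left in that group is assumed to vary like the others. The cause was not tested. Tigit could not be fitted by limma without either CKO library, since it then failed the FPKM filter.

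The count of all genes called was 2 in BTg minus WT, 0 in CKO minus WT and 2 in BTg minus CKO. With no filter on low values it was 46, 65 and 81 in that order. Quantile normalization gave 0 in BTg minus WT and 0 in BTg minus CKO, and fits of only the libraries compared 1 and 0. limma voom gave 4 and 7, and exon lengths 9 in BTg minus CKO. Leaving out 1 library gave 0 to 0, 0 to 67 and 0 to 238, the highest counts without CKO replicate 2.

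The replicate numbers are shared between groups, but nothing in the labels ties same-numbered libraries together. Deviations of same-numbered libraries correlated at 0.17 (CKO and WT), 0.47 (BTg and WT) and 0.46 (BTg and CKO) over 10798 genes, and with 2 numbers a group this is a hint only. With a replicate block the count was 0 in BTg minus WT, 0 in CKO minus WT and 0 in BTg minus CKO; with the block in limma voom, Tigit passed in BTg minus CKO at -2.73 (adjusted p = 0.0358). The limma voom fits that leave out a library or hold a block were chosen after seeing the data. Havcr2 is limited by depth, at 3 to 36 reads a library.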
